A study of Mus musculus with 4 samples.

Results

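The genes described here encode the proteins of the cytoplasmic ribosome, and the measurement is how open their promoters were in hepatocyte nuclei of regenerating mouse liver. They were chosen by symbol from the autosomal protein-coding genes of GENCODE vM21 (mm10). Symbols beginning with Rpl or Rps and a digit or p were taken, and the Rps6k kinase genes and pseudogene-tagged symbols were left out, which gave 81 of 20807 genes. Of these, 49 are named for the large subunit and 31 for the small subunit. The remaining member, Rps19bp1, meets the symbol rule but encodes a protein that binds RPS19 and is not part of the ribosome.

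Single-nucleus ATAC-Seq (scATAC-Seq), in which the Tn5 transposase cuts open chromatin and a droplet barcode marks the nucleus of origin, was done on 4 libraries. The mice were male C57BL/6J of 10 to 12 weeks of age on a normal diet, and hepatocytes were obtained by collagenase perfusion. One library each came from undamaged liver (0 h) and from liver at 48, 72 and 96 h after partial hepatectomy (PHx), in which part of the liver is removed and the remnant regrows. The 0 and 48 h libraries came from 1 hepatocyte preparation each, that at 48 h from 1 mouse, and nothing in the sources used here says whether animals were pooled at 72 and 96 h. With 1 library for each time point, the time, the animal and the library cannot be told apart. No test across samples was possible, and the intervals given are exact Poisson intervals that cover counting error only.

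Ribosomes are built from RNA made in the nucleolus and from about equal numbers of copies of each ribosomal protein, so the genes for these proteins are active in nearly every cell. Their mRNAs belong to the TOP class, which begin with a C followed by a run of pyrimidines, and through this run their translation responds to growth signals. Their promoters are short, usually lie in CpG islands and mostly lack a TATA box. A liver that regrows after PHx needs many new ribosomes, and it is a classical setting for the study of ribosome production.

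Promoter accessibility was measured as the counts in all peaks within 1 kb of an annotated transcription start site (TSS) of a gene, per 1000000 counts in peaks of that library (CPM). Barcodes with at least 1000 counts were taken as nuclei. There were 3977, 3892, 4256 and 3224 nuclei at 0, 48, 72 and 96 h, with a median of 26005, 11629, 4841 and 3681.5 counts. Depth therefore declined in the order of the time points. Peaks had been called in each library on its own, and the length covered at member promoters was greater at 48 h and smaller at 72 and 96 h than at 0 h. For this reason the covered length is given beside the counts and a second scale, CPM per kb of covered peak, beside CPM. Of the barcodes deposited, 681 to 882 occurred in both libraries of a pair, and 27 to 60 did so among nuclei. All 10 hepatocyte markers, among them Alb and Apoa1, had counts in every library, and their summed level in nuclei rich in them was 4402, 5364, 3864 and 5323 CPM. Endothelial markers summed to 257, 270, 355 and 223 CPM in the same nuclei, and Kupffer and myeloid markers to 123, 169, 152 and 53.7 CPM.

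Promoter sequences of 61 of the 81 genes were found in the RefSeq promoter table (GRCm38.p6), and 57 of these had a peak. For 10 genes with more than 1 start the first listed was used. The searched motifs, on both strands over the 300 bases from 250 before to 50 after the start, were CCGGAAG (the ETS family), GGGCGG (Sp and KLF factors), AAGATGG (YY1), CACGTG (E-box), CCAAT (NF-Y), TATAAA, the NRF1 palindrome and a CG-rich palindrome of 10 bases that stands in capitals at position -51 of Rps6 and at -8 of Rps19. On the gene strand, within 50 bases of the start, CTTTCC and also CTTTTC and CTCTTT stood for a pyrimidine tract. CTTTTC and CTCTTT can overlap each other. The sequences below run from 100 bases before to 30 bases after the start, and capitals mark the motifs found. Rplp0, Rps6, Rps19 and Rpl13a are shown as widely used members of each subunit, Rpl3l and Rpl10l as members without a peak, and Rpl24 and Rps25 as those with the largest differences at 48 h.
Rplp0: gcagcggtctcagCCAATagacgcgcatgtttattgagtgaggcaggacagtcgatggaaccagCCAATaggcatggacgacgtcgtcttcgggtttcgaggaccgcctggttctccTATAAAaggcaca
Rps6: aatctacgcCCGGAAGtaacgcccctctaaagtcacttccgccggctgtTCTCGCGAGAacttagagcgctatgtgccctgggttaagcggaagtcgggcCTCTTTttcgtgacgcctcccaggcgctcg
Rps19: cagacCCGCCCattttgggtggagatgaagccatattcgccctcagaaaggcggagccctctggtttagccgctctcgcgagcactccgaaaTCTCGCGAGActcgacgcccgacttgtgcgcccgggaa
Rpl13a: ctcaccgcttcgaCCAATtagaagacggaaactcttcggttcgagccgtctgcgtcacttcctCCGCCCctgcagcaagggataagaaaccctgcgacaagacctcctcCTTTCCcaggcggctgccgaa
Rpl3l: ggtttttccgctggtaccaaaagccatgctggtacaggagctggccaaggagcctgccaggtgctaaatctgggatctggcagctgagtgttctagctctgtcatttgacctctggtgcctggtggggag
Rpl10l: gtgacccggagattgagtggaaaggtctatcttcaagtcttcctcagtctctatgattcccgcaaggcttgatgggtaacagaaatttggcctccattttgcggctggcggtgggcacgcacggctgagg
Rpl24: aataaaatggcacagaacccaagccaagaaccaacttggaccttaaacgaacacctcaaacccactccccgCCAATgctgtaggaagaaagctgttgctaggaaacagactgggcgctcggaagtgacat
Rps25: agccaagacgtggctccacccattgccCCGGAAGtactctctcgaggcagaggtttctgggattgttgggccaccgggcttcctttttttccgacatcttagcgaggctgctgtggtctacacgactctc

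These windows lie at chr5:115559367-115559496, + strand, for Rplp0, at chr4:86857338-86857467, - strand, for Rps6, and at chr7:24884492-24884621, + strand, for Rps19. Those of Rpl13a and Rpl3l are at chr7:45128716-45128845, - strand, and at chr17:24727726-24727855, + strand. Rpl10l lies at chr12:66284372-66284501, - strand, Rpl24 at chr16:55966175-55966304, + strand, and Rps25 at chr9:44407614-44407743, + strand. Positions are counted from 1 at the first transcribed base. In Rps6, the CG-rich palindrome stood at position -51 and the tract CTCTTT began at position 1. Rps19 held the same palindrome at -8, Rpl13a held CTTTCC at 10, and Rps25 held CCGGAAG at -73. Rpl3l and Rpl10l had none of the searched motifs in the printed windows.

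The 57 member promoters with a peak were set beside all promoters of the table. Any of the 3 tracts was found in 30 members (52.6%) and in 9.56% of the 15687 promoters in the table. The first base was C or T in 29 members (50.9%), against 23.1% of all promoters. CTTTCC and CTCTTT were each present in 16 members (28.1%), against 4.33% and 3.37% of promoters, and CTTTTC in 7 members (12.3%), against 3.09%. Among the factor motifs, CCGGAAG was found in 22 members (38.6%) against 12.5%, the CG-rich palindrome in 5 (8.77%) against 0.714%, AAGATGG in 9 (15.8%) against 6.43% and GGGCGG in 35 (61.4%) against 48.6%. CCAAT was in 17 members (29.8%) against 38.4%, and TATAAA in 4 (7.02%) against 12.9%. CACGTG was in 5 members (8.77%) against 8.12%, and the NRF1 palindrome in 1 (1.75%) against 1.40%. The median GC content was 59.0% in members and 57.3% in all promoters, and the ratio of observed to expected CpG was 0.909 against 0.610. A match is a run of letters in the window and does not show that a factor binds there.

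Nearly all members were open in every library. A promoter peak was present at all 4 times for 77 of the 81 genes, while 70.7%, 74.9%, 75.3% and 66.9% of the 20726 other genes had one at 0, 48, 72 and 96 h. The same 4 members lacked a peak in each library. Rpl3l is the striated muscle paralog of Rpl3, Rpl10l and Rpl39l are testis-expressed paralogs of X-linked genes, and Rps27rt is a retrogene copy of Rps27. Their counts were 0 in peaks within 1 kb of the TSS, which bounds each at 0.0540, 0.119, 0.298 and 0.494 CPM at 0, 48, 72 and 96 h only as far as a peak would have been called. The other paralogs, Rpl22l1, Rpl36al, Rpl7l1 and Rps27l, had peaks throughout. Peaks lay over the 5′ end of the gene in 75, 75, 74 and 74 members. They reached a median of 853, 829, 670 and 465.5 bp upstream of that end and 1322, 1402, 886.5 and 650 bp downstream of it.

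The summed level of all members was highest in undamaged liver. It was 3168 CPM (3154 to 3181) at 0 h, 2755 CPM (2736 to 2773) at 48 h, 1861 CPM (1837 to 1886) at 72 h and 2246 CPM (2212 to 2280) at 96 h. The sum at 72 h was thus the lowest, at 0.588 of that at 0 h, and those at 48 and 96 h were 0.870 and 0.709 of it. The summed peak length changed as well, from 304 kb at 0 h to 363, 193 and 120 kb, and was 1.19, 0.636 and 0.394 of that at 0 h. Over all member peaks together, the mean level per kb was 10.4, 7.58, 9.63 and 18.8 CPM. On this scale the lowest library was 48 h and the highest was 96 h. Over merged regions, which join peaks of the 4 libraries that touch or overlap and sum each library's peaks within them, the sums were 3378, 2821, 2263 and 2833 CPM, so that 72 h was again the lowest, while 96 h was no longer below 48 h.

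**Figure D1:**
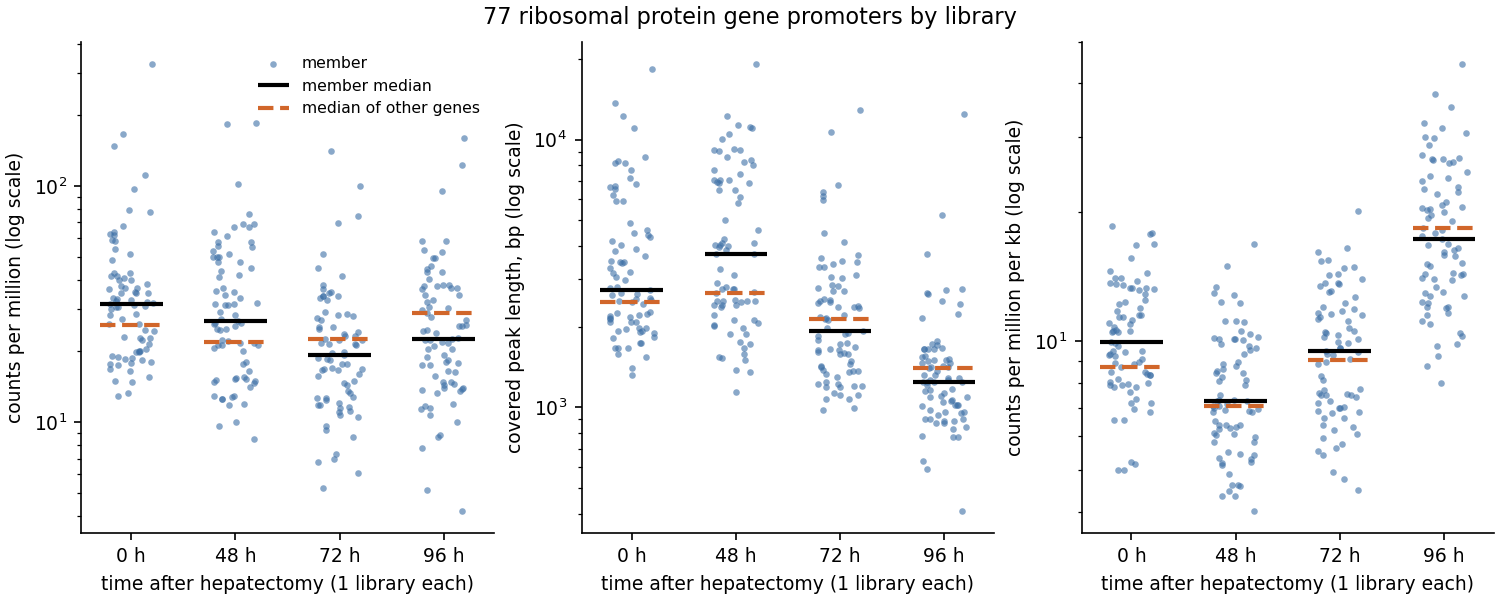
Levels of the 77 ribosomal protein gene promoters with a peak in every library, as CPM, covered peak length in bp and CPM per kb, each on a log axis, by time after PHx. Each point is 1 gene, the black line is the median of the ribosomal protein genes and the dashed line that of all other genes with a peak. The CPM medians of the ribosomal protein genes lie above those of the other genes at 0 and 48 h and below them at 72 and 96 h.

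Among single genes, the median level was 31.4, 26.8, 19.1 and 22.4 CPM at 0, 48, 72 and 96 h. The other genes with a peak had medians of 25.6, 21.9, 22.5 and 29.0 CPM. The median member thus stood at the 60.0, 60.7, 42.4 and 38.2 percentile of all genes with a peak, members included. Its covered length was 2729, 3722, 1921 and 1244 bp, beside 2469, 2670, 2134 and 1402 bp for other genes. Per kb, the members had 9.98, 7.23, 9.48 and 17.3 CPM and the other genes 8.68, 7.07, 9.05 and 18.4 CPM. Per kb the median member stood at the 62.1, 52.0, 53.8 and 44.4 percentile. By counts, the members' place among other promoters was thus above the middle at 0 and 48 h and below it at 72 and 96 h. Per kb it was above the middle at 0 h, close to it at 48 and 72 h and below it at 96 h.

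At 48 h against 0 h, most members were lower by a small amount. The median log2 ratio of CPM + 1 was -0.23, with the middle 50% of members from -0.44 to -0.03, and the median over all 14670 genes with a peak in both libraries was -0.13. The distance between these medians, -0.10, became -0.04 when members and all genes were limited to those with a mean of at least 10 CPM, since the median of the 11961 genes left was -0.19. Of the 77 members, 58 were lower, as were 61.2% of all genes. Changes of at least 2-fold were seen for 3 members upward and 1 downward, while 9.50% of all genes passed 2-fold in either direction, 6.90% higher and 2.60% lower. Per kb the median was -0.35 against -0.18 for all genes, and 73 members were lower (72.8% of all genes). Over the 29 members whose covered length was within 10% in both libraries, it was -0.34 against -0.22.

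The 3 members past 2-fold upward at 48 h were Rpl24, Rpl35 and Rpl12, all of the large subunit. Rpl24 (chr16:55966275-55971435, + strand) had 19.7, 69.2, 14.3 and 14.8 CPM at 0, 48, 72 and 96 h, and its level at 48 h was 3.51 times that at 0 h (3.28 to 3.76). Its peaks covered 2207, 8211, 1894 and 1067 bp in sum at these times. Only at 48 h did they also lie within 1 kb of the start of Zbtb11. The peak over the 5′ end of Rpl24 reached 397 bp upstream and 1322 bp downstream at 0 h. At 48 h it reached 384 and 1346 bp, so that this peak had nearly the same extent in both libraries. Per kb Rpl24 had 8.93, 8.42, 7.54 and 13.9 CPM, so that the 48 h library did not stand out. When the overlapping peaks of all libraries were merged into common regions, an alternative chosen after seeing the data, it had 75.3, 69.2, 57.4 and 68.8 CPM.

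In the other 2 members the difference at 48 h was likewise smaller over merged regions. Rpl35 had 31.0, 76.2, 28.2 and 37.0 CPM over its own peaks, and 64.9, 76.2, 70.7 and 74.9 CPM over merged regions. Rpl12, a protein of the stalk base, had 19.9, 47.6, 14.6 and 18.2 CPM over its own peaks and 46.3, 47.6, 34.9 and 42.0 CPM over merged regions. Both had a peak that also lay within 1 kb of another gene's start in every library (a shared peak), that of Arpc5l for Rpl35 and of Lrsam1 for Rpl12. Over merged regions no member passed 2-fold at 48 h, beside 5.73% of all genes, and the median of -0.23 was that found over separate peaks.

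Rps25, a small subunit protein used in some forms of internal initiation, was the only member past 2-fold downward at 48 h. It had 147, 21.1, 16.5 and 24.4 CPM at 0, 48, 72 and 96 h, and at 48 h it stood at 0.143 of the level at 0 h (0.132 to 0.155). The gene lies at chr9:44407139-44410427 on the + strand. Its peak measured 13659 bp at 0 h and 3956, 1377 and 1207 bp later. At 0 h it also lay within 1 kb of the starts of Slc37a4, the glucose 6-phosphate transporter, and Trappc4. Over merged regions Rps25 had 147, 76.4, 66.2 and 90.1 CPM, so that the 0 h library remained the highest and the later libraries were closer to it. Rpl18 and Rps28 had the next lowest ratios, at 0.563 (0.547 to 0.580) and 0.548 (0.478 to 0.628) of 0 h.

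**Figure D2:**
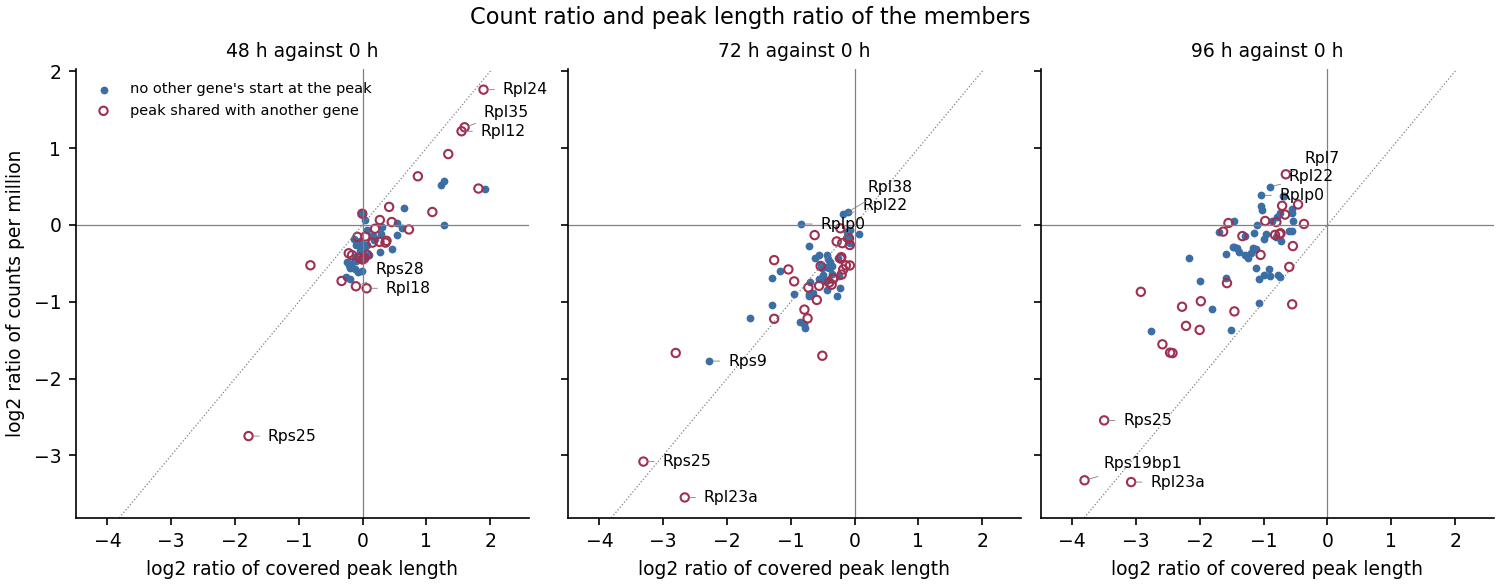
Log2 ratio of CPM against the log2 ratio of covered peak length for the 77 ribosomal protein genes at 48, 72 and 96 h against 0 h. Filled points are genes whose peaks lay within 1 kb of no other gene's start. Open points are those that share a peak in any library. The dotted line marks equal ratios, and the genes with the 3 largest rises and falls are named. Count and length ratios move together, with correlations of 0.870, 0.800 and 0.810, and at 96 h most points lie above the dotted line.

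The ratio of counts moved with the ratio of peak length. Across the 77 members, which share each library and its depth, Pearson's correlation of the log2 ratios to 0 h came to 0.870, 0.800 and 0.810 for the libraries of 48, 72 and 96 h. Across all genes it came to 0.837, 0.852 and 0.847. These are descriptions across genes, which are not replicates. Peaks within 1 kb of another gene's start, called shared here, were present for 27, 30, 25 and 20 members at 0, 48, 72 and 96 h. Peaks over 5 kb summed per gene were present for 17, 27, 6 and 2 members.

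At 72 h against 0 h, the members were lower almost without exception. The median log2 ratio was -0.60 (middle 50% from -0.85 to -0.42), while that of all 14602 genes was -0.06. Of the 77 members 74 were lower, beside 54.4% of all genes. The exceptions were Rpl38, Rpl22 and Rplp0, which were close to their level at 0 h. At least 2-fold lower were 13 members (7.49% of all genes), and no member was 2-fold higher (10.4% of all genes), where 17.9% of all genes passed 2-fold in either direction. Over merged regions the median was -0.54 against -0.04, and 11 members were 2-fold lower, beside 2.53% of all genes.

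Per kb, the difference at 72 h was smaller. The median was -0.15 against 0.16 for all genes, and 54 members were lower, beside 32.0% of all genes. Rpl18 alone was 2-fold lower on this scale (0.260% of all genes). Only 9 members had near-equal peak length at 0 and 72 h, and their median was -0.16 against 0.10 for all such genes. Set relative to the median of all genes, the members thus lay at -0.54 by CPM, -0.31 per kb and -0.26 at near-equal length.

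Of the 13 members that were 2-fold lower at 72 h, 5 are of the small subunit besides Rps25, namely Rps2, Rps9, Rps16, Rps27 and Rps28. Rps9 had 40.0, 28.3, 11 and 14.8 CPM at 0, 48, 72 and 96 h, and at 72 h it was 0.275 of the level at 0 h (0.230 to 0.327). Rps16 had 17.7, 12.8, 6.75 and 7.77 CPM, with 0.382 (0.305 to 0.480) at 72 h. Rps28, which shares its peak with Ndufa7, had 15.5, 8.50, 6.11 and 4.22 CPM, the lowest mean of all members with a peak. Neither Rps9 nor Rps16 shared a peak with another gene, and both were also past 2-fold at 72 h over merged regions.

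The large subunit members 2-fold lower at 72 h were Rpl9, Rpl18, Rpl19, Rpl23, Rpl23a, Rpl27a and Rplp1. Rpl23, one of the proteins that bind MDM2 when ribosome assembly fails, had 14.8, 9.63, 5.26 and 5.16 CPM, and the 72 h level was 0.354 (0.271 to 0.455) of that at 0 h. Rpl19 had 18.5, 11.7, 7.0 and 8.64 CPM, with 0.378 (0.299 to 0.468) at 72 h. These genes share no peak and stood low at both 72 and 96 h. Rpl23a showed the largest difference, with 111, 66.8, 8.61 and 10.0 CPM. Its peaks covered 8628, 6867, 1363 and 1022 bp in sum, and at 0 and 48 h they lay within 1 kb of the starts of Nek8 and Tlcd1. The peak over the 5′ end of Rpl23a reached 904 bp upstream and 7723 bp downstream at 0 h. At 48 h it reached 730 and 994 bp, so that this peak was already shorter then. Over merged regions Rpl23a had 111, 66.8, 56.7 and 69.1 CPM and was no longer past 2-fold. Rpl27a likewise had 97.3, 101, 41.5 and 58.3 CPM over its own peaks, which measured 11009, 11360, 3532 and 2752 bp, and 97.3, 103, 94.03 and 111 CPM over merged regions.

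At 96 h against 0 h, the members were lower by CPM and higher per kb, and on both scales they lay below all genes. The median log2 ratio of CPM was -0.28 (all 13874 genes 0.16), and 56 members were lower, beside 39.0% of all genes. At least 2-fold lower were 15 members (9.23% of all genes), and none was 2-fold higher (6.83% of all genes), where 16.1% of all genes passed 2-fold in either direction. Per kb the median was 0.77 against 1.02. On that scale 73 members were higher (99.1% of all genes), and 23 were 2-fold higher (51.8% of all genes). No member had near-equal peak length at 0 and 96 h. Over merged regions the median was -0.20 against 0.20, and 8 members were 2-fold lower, beside 2.71% of all genes.

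Both at 72 and at 96 h, 10 members were 2-fold lower, beside 5.20% of all genes. Those that were so at 96 h over their own peaks and over merged regions were Rpl9, Rpl18, Rpl19, Rpl23, Rps9, Rps16, Rps18 and Rps28. The lowest ratio at 96 h was that of Rpl23a, at 0.0901 (0.0708 to 0.113) of the level at 0 h. Next came Rps19bp1 (chr15:80260615-80264315, - strand), at 0.0944 (0.0776 to 0.113), with 165, 183, 140 and 15.6 CPM at 0, 48, 72 and 96 h. Its peak measured 12243, 12203 and 10701 bp at 0, 48 and 72 h and 874 bp at 96 h. Except at 96 h it also lay within 1 kb of the start of Atf4, a transcription factor of the amino acid response. Over merged regions Rps19bp1 had 165, 183, 140 and 148 CPM, and per kb 13.5, 15.0, 13.1 and 17.8 CPM over its own peaks.

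**Figure D3:**
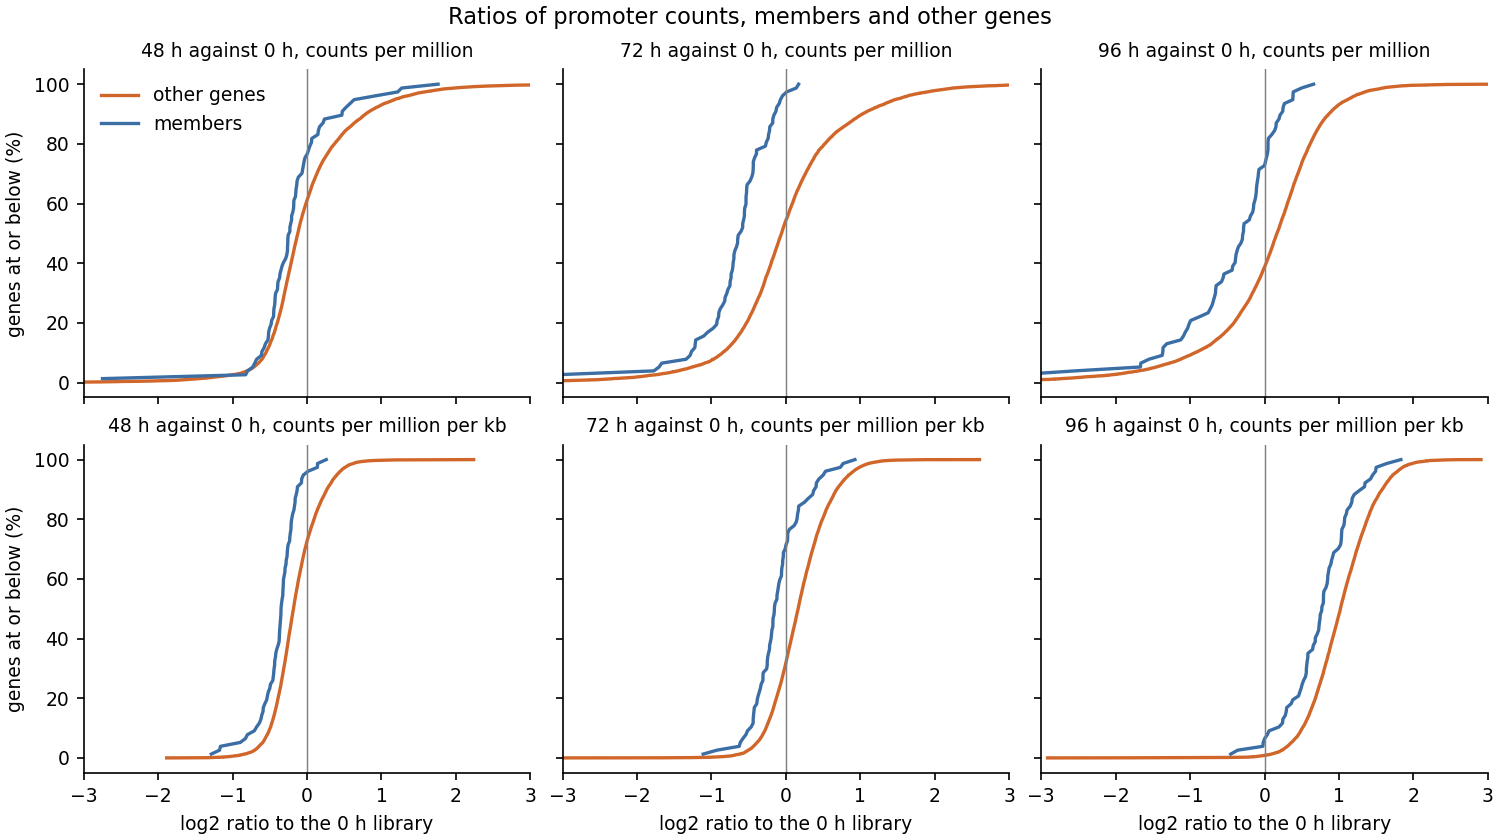
Cumulative share of genes by log2 ratio to the 0 h library at 48, 72 and 96 h, for the 77 ribosomal protein genes and for other genes, with CPM in the upper row and CPM per kb in the lower row. The curve of the ribosomal protein genes lies to the left of the other genes around the median in each panel, with medians of -0.23, -0.60 and -0.28 by CPM and -0.35, -0.15 and 0.77 per kb.

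Between neighbouring times, the step from 48 to 72 h was downward by CPM and that from 72 to 96 h upward. The median log2 ratio was -0.38 for members and 0.08 for all genes, and 65 of the 77 members were lower at 72 h, beside 41.3% of all genes. Per kb it was 0.16 against 0.33, with 61 members higher, beside 90.1% of all genes. From 72 to 96 h, 63 members were higher by CPM, beside 69.4% of all genes, and the median was 0.35 against 0.23. Over merged regions it was 0.26 against 0.24 and per kb 0.86 against 0.82, so that members and all genes differed little on these scales. All 77 member peak sets were shorter at 72 h than at 48 h and shorter at 96 h than at 72 h. The median log2 ratio of covered length was -0.63 and -0.51 in these steps, beside -0.23 and -0.65 over all genes, which thus shortened as well and, in the second step, by more. The comparisons with 0 h share that library, and those between neighbouring times share their middle library.

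Taken gene by gene, 41 of the 77 members were lower than at 0 h at all 3 later times, beside 29.1% of the 13871 genes with a peak in every library. Rpl38 alone was higher at all 3, beside 25.5% of all genes. CPM was highest at 0 h in 41 members (29.1% of all genes), at 48 h in 18 (9.95%) and at 96 h in 18 (45.4%). It was lowest at 72 h in 52 members, beside 26.6% of all genes. A decline from 0 to 48 h and again to 72 h was found in 47 members, beside 28.3% of all genes. Per kb, the level was highest at 96 h in 73 members, where 98.8% of all genes were so, and lowest at 48 h in 59, beside 68.5%.

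The stalk proteins Rplp0, Rplp1 and Rplp2, which recruit translation factors to the ribosome, did not follow 1 course. Rplp0 (chr5:115559467-115563727, + strand) had 16.5, 12.8, 16.6 and 21.8 CPM at 0, 48, 72 and 96 h, and it was 0.779 (0.693 to 0.874), 1.01 (0.867 to 1.17) and 1.32 (1.12 to 1.56) times the 0 h level. Rplp1 had 22.7, 14.6, 10.5 and 13.7 CPM and stood at 0.461 (0.384 to 0.553) of 0 h at 72 h. Rplp2 had 20.05, 11.9, 11.5 and 11.9 CPM, which was 0.575 (0.479 to 0.682) of 0 h at 72 h. At 48 h all 3 were lower than at 0 h, and at 96 h Rplp0 was above 0 h while the others remained below it. The covered length of Rplp0 was 2170, 2113, 1217 and 1049 bp, and none of the 3 shared a peak with another gene.

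Rps6, the small subunit protein that S6 kinase phosphorylates in response to growth signals, had 36.5, 52.9, 27.5 and 36.5 CPM, with 1.45 times the 0 h level at 48 h (1.36 to 1.54). The 48 h peak of Rps6 was 7726 bp long, against 3304, 2445 and 1540 bp in the other libraries, and per kb it had 11.1, 6.84, 11.3 and 23.7 CPM. Rps3, which lines the mRNA entry channel, had 24.6, 16.4, 12.7 and 22.7 CPM. Rps14 had 78.7, 66.9, 69.6 and 94.9 CPM and shared its peak with Ndst1. Rps19, a gene mutated in Diamond-Blackfan anaemia, had 67.4, 61.4, 35.7 and 49.6 CPM, and Rps27a, which encodes a ribosomal protein fused to ubiquitin, had 41.7, 31.5, 24.6 and 37.6 CPM. Rps3, Rps19 and Rps27a had their lowest value at 72 h, whereas Rps14 had it at 48 h.

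Among large subunit proteins, Rpl5 and Rpl11 form with 5S rRNA the particle that restrains MDM2 when assembly fails. Rpl5 had 19.95, 17.5, 17.6 and 22.4 CPM at 0, 48, 72 and 96 h, and Rpl11 had 17.7, 15.2, 12.1 and 14.4 CPM. Rpl5 differed little, with 0.880 (0.759 to 1.02) of the 0 h level at 72 h, and Rpl11 stood at 0.680 (0.569 to 0.806). Rpl3, near the peptidyl transferase centre, had 31.1, 26.8, 17.6 and 18 CPM, and Rpl13a had 58.3, 49.9, 34.3 and 28.8 CPM. The Rpl13a peaks also lay within 1 kb of another gene's start except at 96 h. Rpl4 had 13.3, 12.7, 7.32 and 8.77 CPM and shared its peak with Zwilch.

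Some members were the highest relative to 0 h at 72 or 96 h. Rpl22 had 26.0, 19.95, 28.7 and 37.0 CPM, and was 1.11 (0.984 to 1.24) times the 0 h level at 72 h and 1.43 (1.25 to 1.62) at 96 h. Rpl38, which favours the translation of certain Hox mRNAs, had 21.3, 21.6, 24.1 and 25.4 CPM, and was 1.13 (0.995 to 1.28) and 1.19 (1.02 to 1.39) times the 0 h level at 72 and 96 h. Rpl7 had 77.2, 69.2, 74.8 and 122 CPM, and at 96 h it was 1.59 (1.48 to 1.70) times the 0 h level, the largest ratio of any member there. The Rpl7 peak also lay within 1 kb of the start of Rdh10. The intervals of Rpl22 and Rpl38 at 72 h included the 0 h level.

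Of the paralogs with a peak, Rpl22l1, the paralog of Rpl22, had 35.1, 34.4, 21.4 and 32.7 CPM. Rpl36al had 51.3, 35.4, 34.0 and 52.2 CPM and shared its peak with Mgat2, and Rps27l, a p53 target, had 35.0, 21.5, 23.5 and 30.3 CPM. Rpl7l1, which belongs to the early steps of large subunit assembly, had 28.5, 20.6, 15.7 and 17.5 CPM. All but Rps27l were lowest at 72 h.

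Rpl18 had the highest mean level of any member, and the highest level in each library except at 72 h, where Rps19bp1 stood above it. The gene lies at chr7:45715457-45720836 on the + strand, and its peaks covered 18316, 19144, 12897 and 12482 bp. They also lay within 1 kb of the starts of Dbp, Sphk2 and Car11. Dbp encodes a circadian transcription factor with strong rhythmic expression in liver. Rpl18 had 327 CPM (323 to 332) at 0 h, 184 CPM (180 to 189) at 48 h, 99.9 CPM (94.4 to 106) at 72 h and 159 CPM (151 to 169) at 96 h. The 72 h level was 0.305 (0.288 to 0.323) of that at 0 h. Per kb, Rpl18 had 17.9, 9.63, 7.75 and 12.8 CPM, and it was the only member below its 0 h level per kb by 2-fold at 72 h. The sources used here do not state the hour of day at which each liver was taken, and which of the genes the counts at this peak belong to cannot be told apart.

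The members were also described by subunit. At 48, 72 and 96 h the log2 ratio to 0 h was -0.24, -0.71 and -0.25 over the 30 small subunit members with a peak, and -0.24, -0.57 and -0.28 over the 46 of the large subunit. At 72 h, 30 of 30 and 43 of 46 were lower, beside 54.4% of all genes, and over merged regions 29 and 42. The 47 members whose peaks lay within 1 kb of no other gene's start in any library had medians of -0.26, -0.57 and -0.28. Of them 0, 6 and 4 passed 2-fold, beside 9.50%, 17.9% and 16.1% of all genes, shared peaks included. The 30 that shared a peak had medians of -0.18, -0.67 and -0.47.

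Gene lists chosen with earlier results of these data known were set beside the members. The lists overlap in part. The Eef and Eif genes among the other TOP mRNAs are also translation factors, Npm1 is also a ribosome biogenesis gene, and Eif6 of that list is also a translation factor. The 13 other TOP mRNAs, among them the elongation factors Eef1a1 and Eef2, had medians of -0.24, -0.52 and -0.20 at 48, 72 and 96 h, and 11 were lower at 72 h. The 35 ribosome biogenesis genes had -0.26, -0.33 and -0.08, the 55 translation factors with a peak -0.26, -0.30 and -0.02, and the oxidative phosphorylation genes -0.33, -0.39 and -0.13. The 78 mitochondrial ribosomal protein genes, which serve the separate ribosome of mitochondria, had -0.30, -0.23 and 0.13. Relative to all genes, the members lay at -0.10, -0.54 and -0.44 and the mitochondrial ribosomal proteins at -0.17, -0.17 and -0.03. At 72 h the other TOP mRNAs lay at -0.46, the oxidative phosphorylation genes at -0.33, the ribosome biogenesis genes at -0.27 and the translation factors at -0.24. At 96 h these lists lay at -0.36, -0.29, -0.24 and -0.18. Per kb at 72 h, the members lay at -0.31 relative to all genes, the other TOP mRNAs at -0.34, the oxidative phosphorylation and ribosome biogenesis genes at -0.22 each, and the translation factors and mitochondrial ribosomal proteins at -0.16 each. Per kb at 96 h, the members lay at -0.25, the other TOP mRNAs at -0.26, the ribosome biogenesis genes at -0.20, the mitochondrial ribosomal proteins at -0.17, the translation factors at -0.13 and the oxidative phosphorylation genes at -0.12. At near-equal peak length at 72 h, the 9 members lay at -0.26, the 2 other TOP mRNAs at -0.36, the 7 ribosome biogenesis genes at -0.37, the 17 oxidative phosphorylation genes at -0.31, the 12 translation factors at -0.28 and the 29 mitochondrial ribosomal proteins at -0.17. On that scale the members did not stand apart from these lists. No test of these differences between lists was made.

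**Figure D4:**
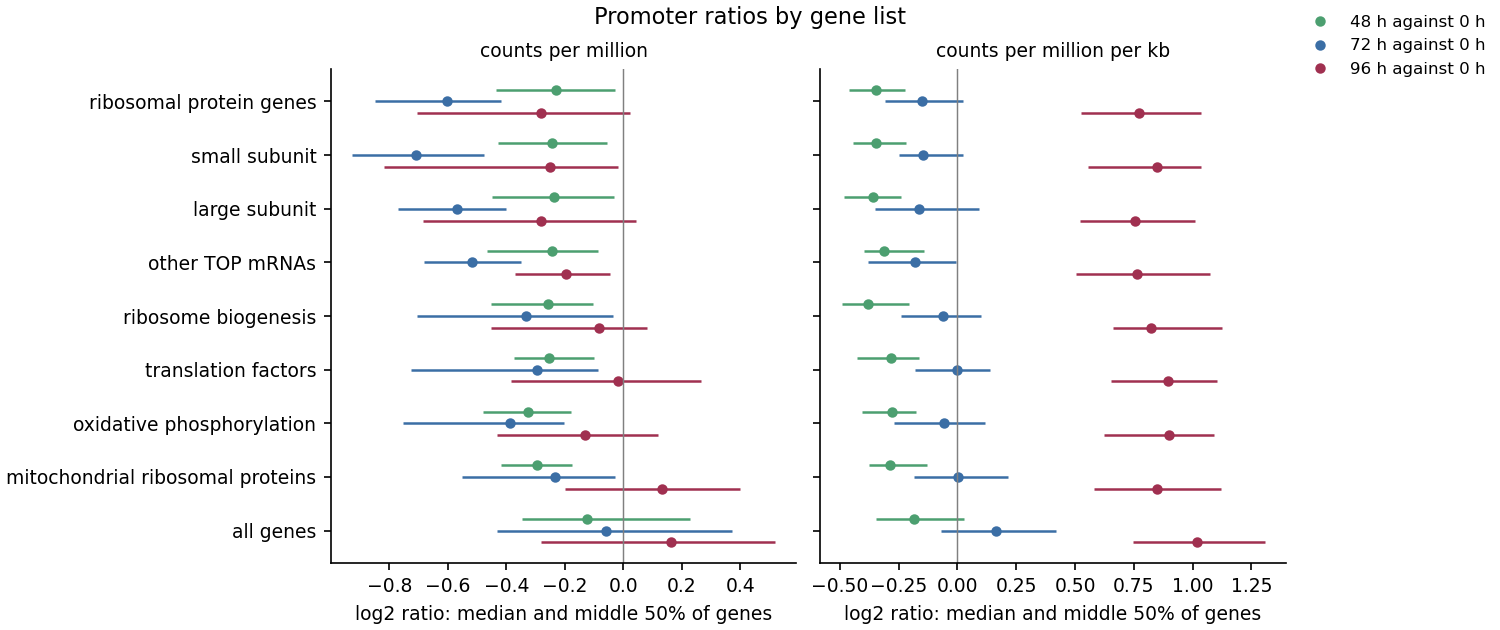
Median log2 ratio to the 0 h library (points) and middle 50% of genes (lines) at 48, 72 and 96 h for the ribosomal protein genes, their 2 subunits, 5 other gene lists and all genes, by CPM on the left and CPM per kb on the right. By CPM at 72 h the ribosomal protein genes have a median of -0.60 and all genes -0.06.

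The members' courses were also set beside their promoter features. Members with a pyrimidine tract (30) and without one (27) had medians of -0.58 and -0.64 at 72 h, -0.16 and -0.32 at 48 h, and -0.15 and -0.35 at 96 h. Members with CCGGAAG (22) and without it (35) had medians of -0.54 and -0.68 at 72 h. Per kb at 72 h, the medians were -0.13 and -0.15 by tract, and -0.10 and -0.19 by CCGGAAG. Since members have a high CpG ratio, they were compared with genes of like composition. In the highest of 4 equal groups of promoters by CpG ratio, 29 members had medians of -0.23, -0.78 and -0.55 at 48, 72 and 96 h, and the 2659 other genes -0.21, -0.14 and 0.18. In the next group below it, 12 members had -0.26, -0.23 and -0.18, and the other genes -0.19, -0.11 and 0.19. In the group below that, 13 members had -0.18, -0.46 and -0.09, and the other genes -0.16, -0.07 and 0.18, so that the members followed no order by CpG ratio at 72 h. Per kb at 72 h, the members' medians in these groups were -0.15, -0.16 and -0.17, and those of the other genes 0.12, 0.14 and 0.15. The lowest group held only 3 members.

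The shares of nuclei with a count at a member promoter were compared after each nucleus was thinned to 2000 counts. This left 3719, 3579, 3620 and 2484 nuclei and set aside 258, 313, 636 and 740 shallower ones. Out of 77 member promoters, a nucleus had counts at a mean of 5.40, 4.55, 2.83 and 3.26 at 0, 48, 72 and 96 h, and the medians were 5, 4, 3 and 3. Without thinning the medians were 28, 14, 5 and 5. Nuclei without a count at any member were 0.350%, 1.31%, 6.69% and 4.03% of the thinned nuclei. The order of the libraries is thus that of the summed CPM.

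For single members the thinned share was small. Over the 77 members it had a median of 5.49%, 4.58%, 2.96% and 3.54%, and without thinning 37.4%, 18.5%, 5.83% and 6.08%. Rpl18 was found in 43.9% (42.3 to 45.5), 26.6% (25.2 to 28.1), 13.9% (12.8 to 15.1) and 19.97% (18.4 to 21.6) of thinned nuclei, with exact binomial intervals that cover counting error only. Without thinning, its share was 86.9%, 62.8%, 25.6% and 31.5%. Rplp0 was found in 2.69%, 2.43%, 2.60% and 2.98% of thinned nuclei, with overlapping intervals in all libraries. The lowest share at 0 h was that of Rpl6, at 2.02%.

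The summed level was also measured by depth within each library. In 4 equal groups of nuclei by depth, the summed level ranged from 3034 to 3245 CPM at 0 h, from 2590 to 2809 CPM at 48 h, from 1837 to 1995 CPM at 72 h and from 2168 to 2341 CPM at 96 h. The 4 ranges did not overlap. The shallowest group at 0 h, with 1001 to 10799 counts a nucleus, had 3245 CPM, and the deepest at 72 h, with 7795 to 31982 counts, had 1851 CPM. All groups of a library used the same peaks, so these values do not bear on the peak lengths, which differed between libraries.

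Nuclei poor in hepatocyte signal had fewer counts in all, and member promoters had a higher CPM in them. A nucleus was called marker-poor where the share of its counts at the 10 hepatocyte markers was under 0.25 of the median of its library. This is a range of a score, not a cell type, and 39, 63, 111 and 91 nuclei lay within 20% of the limit. Marker-poor were 263, 196, 322 and 172 nuclei, or 6.61%, 5.04%, 7.57% and 5.33%, with a median of 3153, 2279, 1915 and 1709.5 counts against 28275.5, 12435, 5153 and 3842.5 in the rest. The summed member level was 4482 CPM (4321 to 4647) in marker-poor and 3155 CPM (3142 to 3168) in other nuclei at 0 h. It was 3740 CPM against 2744 at 48 h, 2378 against 1845 at 72 h and 2697 against 2235 at 96 h. The intervals of the 2 classes did not overlap in any library.

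**Figure D5:**
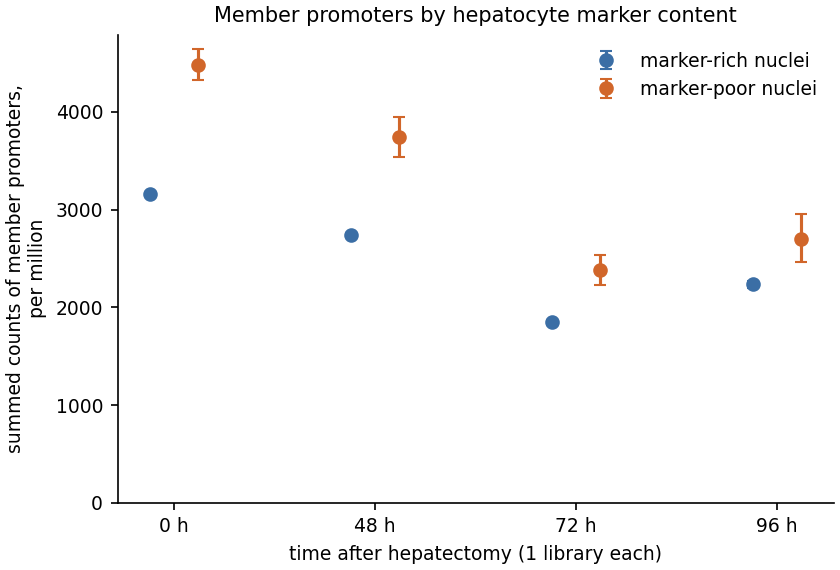
Summed CPM at ribosomal protein gene promoters in marker-rich and marker-poor nuclei of each library, with exact Poisson intervals that cover counting error only. At 0 h the marker-poor nuclei stand at 4482 CPM and the marker-rich nuclei at 3155 CPM, and in both classes 72 h is the lowest library.

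Promoters in general were also higher in the marker-poor nuclei. The median log2 ratio of marker-poor to marker-rich nuclei was 0.74, 0.55, 0.35 and 0.31 over members at 0, 48, 72 and 96 h, and 0.54, 0.35, 0.17 and 0.16 over all genes. Higher in marker-poor nuclei were 70, 63, 61 and 57 of the 77 members, beside 71.6%, 65.6%, 61.5% and 59.1% of all genes. At least 2-fold higher were 18, 12, 11 and 7 members, beside 23.8%, 17.6%, 7.43% and 8.71% of all genes. The markers of other cells, 8 endothelial, 6 Kupffer and myeloid, 7 stellate and mesenchymal and 5 biliary genes, moved with this class in part. Endothelial markers summed to 487, 552, 579 and 170 CPM in marker-poor nuclei, against 257, 270, 355 and 223 CPM in the others. Kupffer and myeloid markers summed to 313, 547, 289 and 17.3 CPM, against 123, 169, 152 and 53.7 CPM, with Clec4f, Adgre1 and Lyz2 at 0 in both classes at 0 and 96 h. Stellate and mesenchymal markers summed to 94.95, 91.1, 158 and 124 CPM against 72.5, 113, 150 and 127 CPM, and biliary markers to 19.1, 36.1, 56.5 and 80.5 CPM against 46.8, 46.8, 69.8 and 68.0 CPM. Of these, Krt19 was at 0 in all marker-poor nuclei. Their part in the members' difference was not tested.

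Rplp0 had 16.1 CPM (15.2 to 17.1) in marker-rich and 52.1 CPM (36.1 to 72.8) in marker-poor nuclei at 0 h, and 12.5 CPM (11.2 to 13.8) against 46.3 CPM (26.5 to 75.1) at 48 h. At 72 h it had 16.6 against 18.4 CPM, and the intervals overlapped. Rps6 at 0 h had 36.2 CPM (34.8 to 37.7) against 64.3 CPM (46.4 to 86.9), and Rpl3 had 30.9 (29.6 to 32.2) against 58.2 CPM (41.2 to 79.9). At 0 h, 7 members went the other way, beside 28.4% of all genes. Of these, Rpl18, Rps25 and Rps19bp1 had 328, 148 and 166 CPM in marker-rich and 260, 113 and 119 CPM in marker-poor nuclei. In these 3 the intervals of the classes did not overlap. They are the members whose peaks at 0 h covered over 12 kb, and these peaks also lay within 1 kb of other genes' starts. That length was set after the values were seen. Rpl27a, at 11009 bp, had 97.4 CPM in marker-rich against 79.6 CPM in marker-poor nuclei, with overlapping intervals. In marker-rich nuclei alone, the median log2 ratios of the members to 0 h were -0.24, -0.64 and -0.28 at 48, 72 and 96 h.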

How the data were processed

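The authors deposited, for each of 4 libraries, a matrix of counts of transposase cut sites in each peak and cell barcode, with peaks called on each library by itself. They aligned, removed duplicates and counted with Cell Ranger ATAC on mm10, per the submitters' processing notes, and the matrix headers name version 1.1.0. Between 87.3% and 88.6% of the values were even, since both ends of a fragment usually fall in the same peak, so exact 95% Poisson intervals were computed on counts divided by 2. Total counts in nuclei were 136582768, 62000846, 24724883 and 14935507 at 0, 48, 72 and 96 h.

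Counts were summed per gene over peaks within 1 kb of any GENCODE vM21 TSS, in barcodes with at least 1000 counts, and scaled to CPM. A peak near several genes was counted for each. Ratios used CPM + 1, and 2-fold was the rule of size, as 1 library per time point allows no test. No doublet caller was run, and the 5% deepest nuclei were left out as an alternative. Other alternatives were a minimum of 3000 counts, another scaling, a 500 bp window, the outermost 5′ end, binarised counts, a pseudocount of 0.1, a level of at least 10 CPM, near-equal peak length (within 10%), unshared peaks and, chosen after seeing the data, merged regions. The members, the gene lists and the comparisons were chosen with earlier results of these data known. Members named with values were the 5 highest and 5 lowest by mean CPM, the 3 largest rises and falls at each time among those with at least 200 counts, a list by role, and any without a peak. A role gene, Rps4l, was not in the annotation. Some items are not reported here. Rps2, Rpl6, Rpl9, Rps18 and Rps27 were named for a count or range after their values were seen. Python 3.11.15, numpy 2.4.6, scipy 1.17.1, pandas 2.3.3 and matplotlib 3.10.9 were used, and the scripts were tested on simulated data.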

Additional observations from a re-analysis of the deposited data

How the results depend on the processing

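Depth fell from 0 to 96 h, while peak length rose at 48 h and was shorter at 72 and 96 h than at 0 h, and the values per kb moved the medians most at 72 and 96 h. The direction of the median log2 ratio to 0 h held in all alternatives at 48 and 72 h. At 96 h it held except per kb, where it was 0.77 against -0.28. The cause of the differences below was not tested, except that near-equal length and unshared peaks use fewer members.
Per kb, the medians at 48 and 72 h were -0.35 and -0.15, and 1 and 23 members passed 2-fold at 72 and 96 h. At near-equal length the medians were -0.34 and -0.16. There 0 members passed 2-fold at 48 and at 72 h, beside 0.0856% and 2.10% of all such genes. At 96 h no member qualified and no value was obtained. With unshared peaks the medians were -0.26 and -0.57 at 48 and 72 h, and 0, 6 and 4 members passed at 48, 72 and 96 h. Over merged regions the medians at 72 and 96 h were -0.54 and -0.20, with 0 members past 2-fold at 48 h and 8 at 96 h. Scaled to promoter counts, the medians at 48, 72 and 96 h were -0.10, -0.41 and -0.24, and scaled to counts in shared regions, -0.16, -0.54 and -0.38. With the outermost 5′ end they were -0.28, -0.58 and -0.18. With a window of 500 bp they were -0.26 and -0.58 at 48 and 72 h, with equal weight for each nucleus -0.27 and -0.54, and in marker-rich nuclei -0.24 and -0.64. At 72 h, a minimum of 3000 counts gave -0.63 and a pseudocount of 0.1 gave -0.62. At 96 h, leaving out the deepest 5% gave -0.32. With binarised counts the median at 96 h was -0.24, and 2 members passed 2-fold at 48 h, beside 5.56% of all genes. The 56 other values of these results moved by less than counting error, or, for counts, by less than 1.5 times. Of the summed levels under the alternatives, 29 moved by more than counting error and 19 did not; over merged regions that at 96 h (2833 CPM) was no longer below that at 48 h (2821 CPM). The members' median minus that of all genes was below 0 in all 16, 16 and 15 alternatives at 48, 72 and 96 h, from -0.16 to -0.04 (the last with a minimum of 10 CPM), from -0.58 to -0.26 and from -0.49 to -0.25.
No paired analysis was possible because each time point had 1 library and the comparisons give no test.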
